A study of Mus musculus with 14 samples.

Results

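Myb encodes c-MYB, a DNA-binding transcription factor on which immature blood cells depend. Myb was followed in mouse marrow cells together with its paralogs Mybl1 (A-MYB) and Mybl2 (B-MYB) and with the genes on either side of it, Ahi1 and Hbs1l. These 5 genes, of 55367 gene symbols counted, were found by symbol and were chosen by a rule that knew how they had moved in both comparisons below. Their changes are therefore given as a description, without a test. All 5 passed the filter on low counts in both comparisons.

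The cells were lineage-negative bone marrow cells of wild-type mice, which hold stem and progenitor cells, grown in medium with SCF, IL6 and IL3. One experiment compared 3 cultures transduced with a pSMAL lentivirus carrying luciferase (LUC) with 3 given the SETBP1-D868N mutant. In the other, every culture carried SETBP1-D868N, and 4 of them received the solvent DMSO for 4 days while the other 4 received PF-9363, an inhibitor of MYST histone acetyltransferases, at 2.5 µM. Neither the promoter that drives the transduced gene nor the strain, age or number of the animals is given in the labels, and p-values below measure the spread between these cultures only. The first used 500 ng of RNA per library and the second 100 ng, with its libraries made elsewhere, so levels were compared within an experiment only.

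The libraries of the LUC and SETBP1-D868N cultures reached 60147266 to 68730322 counts, and those of the DMSO and PF-9363 cultures 7083731 to 10359093. The row of the mouse gene Setbp1 held 0.0744 to 0.101 CPM with LUC and 0.306 to 0.362 CPM with SETBP1-D868N, and at most 0.198 CPM in the second experiment. CPM is the count scaled to a common library total. LUC library 1 stood apart within its group: the chi-square per degree of freedom of its counts was 24.6 against LUC library 2 and 25.2 against LUC library 3, beside 2.21 between those, and 7.50 to 11.8 among the SETBP1-D868N libraries. Without it the log2 fold changes of the members with SETBP1-D868N were 0.80 for Myb, 0.35 for Mybl2, 0.017 for Mybl1, 1.64 for Ahi1 and 0.24 for Hbs1l. The 9 neutrophil markers (Mpo, Elane, Prtn3, Ctsg, Ltf, Camp, S100a8, S100a9 and Ly6g) summed to 19014 to 19733 CPM in the LUC cultures. Mpo, at a mean of 2761 CPM, and Elane, at 731 CPM, were a minor part of this. The 7 stem and progenitor markers (Kit, Cd34, Flt3, Sox4, Ptprc, Spi1 and Cd48) summed to 1150 to 1167 CPM there. Among them the LUC means were 353 CPM for Spi1, 180 CPM for Kit and 67.5 CPM for Cd34. Markers of both were thus present, as were those of monocytes and mast cells given below. In such bulk samples fewer cells of a type and less RNA per cell cannot be told apart.

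c-MYB recruits the coactivators p300 and CBP to enhancers and keeps haematopoietic progenitors immature and dividing. B-MYB is made in dividing cells, where it joins the MuvB complex and switches on genes of G2 and mitosis, and A-MYB is best known from meiosis in the testis. Ahi1 encodes jouberin, a protein of the ciliary transition zone, and lies next to Myb in a stretch where retroviruses often insert in leukaemia. Hbs1l encodes a GTPase that works with Pelo to release stalled ribosomes, and the stretch between it and Myb holds distal enhancers of Myb.

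In the GENCODE M21 annotation of GRCm38, Myb occupies chr10:21124935-21160984 on the minus strand. Ahi1 (chr10:20952547-21080429, plus strand) ends 44.5 kb from it, and Hbs1l (chr10:21295979-21368898, plus strand) begins 135.0 kb on the other side, where the Myb promoter lies. Mybl1 (chr1:9667415-9700209, minus strand) and Mybl2 (chr2:163054687-163084688, plus strand) lie on other chromosomes. RefSeq promoter windows on GRCm38.p6 were found for 4 of the 5 genes (Myb, Ahi1, Hbs1l and Mybl2). The letters GGCGGGA, the core of many E2F binding sites, were searched on both strands of the 250 bases before the start. They occurred in the windows of Myb, Mybl2 and Hbs1l and in neither of the windows of Ahi1, and 9.75% of all 32851 windows hold them. The last 150 bases before the start are shown for these 3 genes because that shared stretch lies within them, 5′ to 3′ on the gene's own strand, with GGCGGGA in capitals.
Myb (chr10:21160985-21161134, minus strand): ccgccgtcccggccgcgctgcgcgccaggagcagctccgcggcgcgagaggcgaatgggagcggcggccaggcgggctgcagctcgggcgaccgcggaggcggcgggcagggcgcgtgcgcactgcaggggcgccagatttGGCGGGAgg
Mybl2 (chr2:163054485-163054634, plus strand): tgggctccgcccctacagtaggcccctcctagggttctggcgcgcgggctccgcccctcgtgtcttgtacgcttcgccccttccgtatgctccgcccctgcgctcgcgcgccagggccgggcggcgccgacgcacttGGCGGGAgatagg
Hbs1l (chr10:21295829-21295978, plus strand): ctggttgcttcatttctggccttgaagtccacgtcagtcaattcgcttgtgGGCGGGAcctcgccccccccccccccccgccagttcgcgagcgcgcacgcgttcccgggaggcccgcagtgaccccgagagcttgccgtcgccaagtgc

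In Myb the match began 9 bases before the start, in Mybl2 13 bases and in Hbs1l 99 bases. The letters CAACNG or TAACNG, forms of the element that MYB proteins bind, were present only in the Mybl2 window among these (from 221 bases before the start), while 43.1% of all windows hold them. The cell cycle element TTTGAA was present only in the second Ahi1 window, against 16.0% of all windows. None of these matches overlapped another. A match describes letters and not a bound site. The letters G and C made up 81.2% of the Myb window, 65.6% of that of Mybl2 and 58.4% of that of Hbs1l. In the Ahi1 windows they made up 65.6% and 37.6%. The shares over all windows were not matched for this content.

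Myb was higher in every SETBP1-D868N culture than in any LUC culture, and lower in every PF-9363 culture than in any DMSO culture. With LUC it stood at 190, 198 and 201 CPM in the 3 libraries, and with SETBP1-D868N at 359, 350 and 332 CPM. The group means were 196 ± 5.57 CPM (SD, n = 3) and 347 ± 13.9 CPM (SD, n = 3), a log2 fold change of 0.82 with an SE of 0.033. With DMSO the 4 libraries held 323, 325, 321 and 288 CPM, and with PF-9363 53.5, 65.0, 32.4 and 39.9 CPM. Every PF-9363 library was below every DMSO library, with means of 314 ± 17.8 and 47.7 ± 14.5 CPM (SD, n = 4 each). Myb was 6.55-fold lower with PF-9363, a log2 fold change of −2.71 with an SE of 0.20. Relative to the mean, the PF-9363 libraries were spread more widely (30.3%, SD over mean) than the DMSO libraries (5.68%).

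Mybl2, the gene of B-MYB, moved in the same directions as Myb. Its levels were 97.8, 100.0 and 99.0 CPM with LUC and 132, 124 and 126 CPM with SETBP1-D868N. The groups did not overlap, and the log2 fold change was 0.36 (SE 0.030). Under DMSO the libraries held 112, 97.9, 115 and 102 CPM and under PF-9363 3.81, 10.6, 2.96 and 3.58 CPM. PF-9363 library 2 held more than the other PF-9363 libraries and still far less than any DMSO library. The means of 106 ± 7.87 and 5.23 ± 3.58 CPM (SD, n = 4 each) are 20.5-fold apart, a log2 fold change of −4.36 (SE 0.30), and it was −4.91 without PF-9363 library 2.

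Mybl1, the gene of A-MYB, was low in every culture. It held 5.29, 5.42 and 5.48 CPM with LUC and 5.58, 5.41 and 5.54 CPM with SETBP1-D868N. These ranges overlapped, with a log2 fold change of 0.031 (SE 0.076). In the second experiment the DMSO libraries were far apart, at 5.95, 5.59, 3.75 and 1.72 CPM, which are 60, 56, 40 and 19 reads. The PF-9363 libraries held 2.37, 2.96, 1.71 and 1.84 CPM. The PF-9363 range overlapped that of DMSO through DMSO library 4, and the log2 fold change was −0.92 (SE 0.33).

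Ahi1 was the member with the highest fold change with SETBP1-D868N. Its libraries held 8.08, 8.43 and 8.14 CPM with LUC and 24.9, 25.9 and 26.9 CPM with SETBP1-D868N. The groups were 3.15-fold apart with no overlap, a log2 fold change of 1.66 (SE 0.051), which is at the 99.5th percentile of the 15794 genes tested, where Myb was at the 98.0th. The second experiment differed from this: Ahi1 held 16.5, 15.9, 16.4 and 19.4 CPM with DMSO and 13.5, 18.9, 14.2 and 14.8 CPM with PF-9363. These groups overlapped, and the log2 fold change was −0.16 (SE 0.13). Myb was at the 3.50th percentile of the 13456 genes tested there and Mybl2 at the 0.840th, while Ahi1 was at the 44.8th.

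Hbs1l moved least among the 3 genes of the locus with SETBP1-D868N. Its libraries held 58.5, 61.2 and 59.1 CPM with LUC and 70.8, 71.4 and 71.0 CPM with SETBP1-D868N. The groups did not overlap, and the log2 fold change was 0.25 (SE 0.030). Under DMSO it held 59.1, 58.8, 57.9 and 57.1 CPM and under PF-9363 44.7, 49.4, 45.0 and 50.8 CPM. These groups did not overlap either, with a log2 fold change of −0.29 (SE 0.077). Scaling by library size alone moved the median log2 fold change of all genes in the second experiment by −0.23 and placed Hbs1l at −0.52 and Ahi1 at −0.38, so the small changes of both depend on the scaling.

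**Figure D1:**
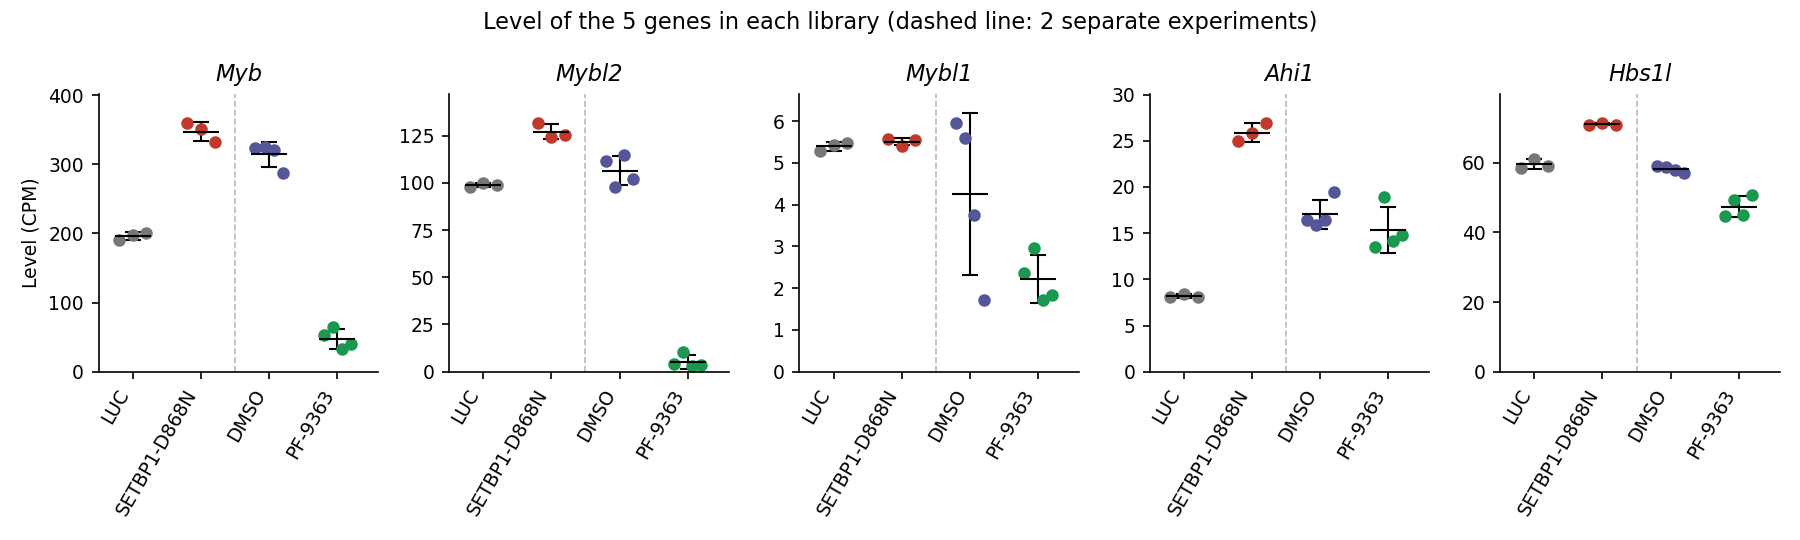
Level of each gene in CPM (vertical axes, linear from 0) in the LUC, SETBP1-D868N, DMSO and PF-9363 libraries (horizontal axes), with 1 point per library and bars for the mean ± SD. Myb and Mybl2 were high in DMSO and low in PF-9363, Ahi1 was apart only between LUC and SETBP1-D868N, and Mybl1 was spread from 1.72 to 5.95 CPM within DMSO.

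Read against all genes, these counts say little by number alone. At an adjusted p under 0.05 (edgeR), 4 of the 5 members were called with SETBP1-D868N, all higher, where 47.2% of all tested genes were called and 24.5% were called higher. With PF-9363, 4 of 5 were called, all lower, where 76.0% of all tested genes were called and 39.4% were called lower. The groups did not overlap for 4 of 5 members in the first comparison, against 56.7% of all genes, and for 3 of 5 in the second, against 70.3%. The rule used these contrasts, so the counts support nothing. Scaling by library size alone moved the share of higher genes among those called from 51.9% to 62.1% in the first comparison and from 48.1% to 36.2% in the second.

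Levels of different genes were compared per kb of merged exons. With LUC, Myb stood at 22.0 ± 0.624 CPM per kb and Mybl2 at 21.4 ± 0.235 (SD, n = 3 each), whose ranges overlapped. Hbs1l followed at 9.85 ± 0.232, Ahi1 at 1.17 ± 0.0265 and Mybl1 at 0.999 ± 0.0181 CPM per kb. The order was the same with SETBP1-D868N, at 38.9 ± 1.56 for Myb, 27.4 ± 0.847 for Mybl2, 11.7 ± 0.0452 for Hbs1l, 3.68 ± 0.139 for Ahi1 and 1.02 ± 0.0162 for Mybl1. There, and between the other neighbours with LUC, the ranges did not overlap.

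The same order held with DMSO, at 35.2 ± 2.00 CPM per kb for Myb, 23.0 ± 1.70 for Mybl2, 9.62 ± 0.152 for Hbs1l, 2.42 ± 0.229 for Ahi1 and 0.787 ± 0.360 for Mybl1 (SD, n = 4), again with no overlap between neighbours. With PF-9363 Hbs1l was the highest, at 7.84 ± 0.507 CPM per kb. Myb stood at 5.34 ± 1.62, Ahi1 at 2.18 ± 0.349, Mybl2 at 1.13 ± 0.773 and Mybl1 at 0.411 ± 0.106 CPM per kb. Among the PF-9363 libraries the ranges of Ahi1 and Mybl2 overlapped, through library 2, and all other neighbours in the order were apart. The merged exons of Myb (8933 bases) are much longer than its longest transcript (3693 bases). Per kb of the longest transcript, Myb was at 53.2 and Mybl2 at 27.1 CPM per kb with LUC.

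Within a library, the ratio of one count to another is free of the scaling. For every 100 counts of Myb there were 4.19 ± 0.122 of Ahi1 with LUC and 7.47 ± 0.586 with SETBP1-D868N (SD, n = 3 each). Hbs1l went the other way, from 30.4 ± 0.844 to 20.5 ± 0.843 counts per 100 of Myb, as did Mybl2, from 50.4 ± 1.11 to 36.6 ± 1.21. With DMSO there were 5.46 ± 0.869 Ahi1 counts per 100 of Myb and with PF-9363 33.8 ± 8.24 (SD, n = 4 each). Hbs1l went from 18.6 ± 0.864 to 106 ± 31.3 counts per 100 of Myb, so that in PF-9363 libraries 3 and 4 it had more counts than Myb. Mybl2 went from 33.9 ± 2.62 to 10.4 ± 4.03 counts per 100 of Myb. In all of these ratios to Myb the 2 groups of an experiment did not overlap. The ratio of Ahi1 to Hbs1l, the genes on either side of Myb, was 13.8 ± 0.0287 per 100 with LUC and 36.4 ± 1.35 with SETBP1-D868N, and it overlapped between DMSO (29.3 ± 3.20) and PF-9363 (32.3 ± 4.19).

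The locus also holds antisense genes, and these bear on how the Myb and Hbs1l counts of the 2 experiments were made. Gm26577 (chr10:21145094-21154374, plus strand) lies inside Myb on the opposite strand, and 25.6% of its exon bases are also exon bases of Myb. In the first experiment it had 16 to 25 counts in each library, or 0.0742 to 0.168 counts per 100 of Myb. In the second, at a lower depth, it had 751 to 920 counts with DMSO and 36 to 173 with PF-9363, or 17.3 to 33.3 counts per 100 of Myb. Its log2 fold change with PF-9363 was −2.68 (SE 0.28), next to −2.71 for Myb. The antisense genes were added after their values were seen, so this is a description without a test.

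4930455C13Rik, inside Hbs1l on the opposite strand, had at most 2 counts in a LUC or SETBP1-D868N library, while the DMSO and PF-9363 libraries had 42 to 131, which is 14.5 to 21.7 counts per 100 of Hbs1l. Over all 2837 genes annotated as antisense, their share of a library's counts was 0.0957% to 0.104% with LUC or SETBP1-D868N and 1.41% to 1.61% with DMSO or PF-9363. Strand handling is not given in the sources used here, and without it reads of a gene and its antisense partner cannot be told apart. Whether the Myb and Hbs1l counts of the second experiment gained or lost reads over these shared bases was not tested. The other 7 genes annotated between the start of Ahi1 and the end of Hbs1l had at most 15 counts in any library and were not tested.

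**Figure D2:**
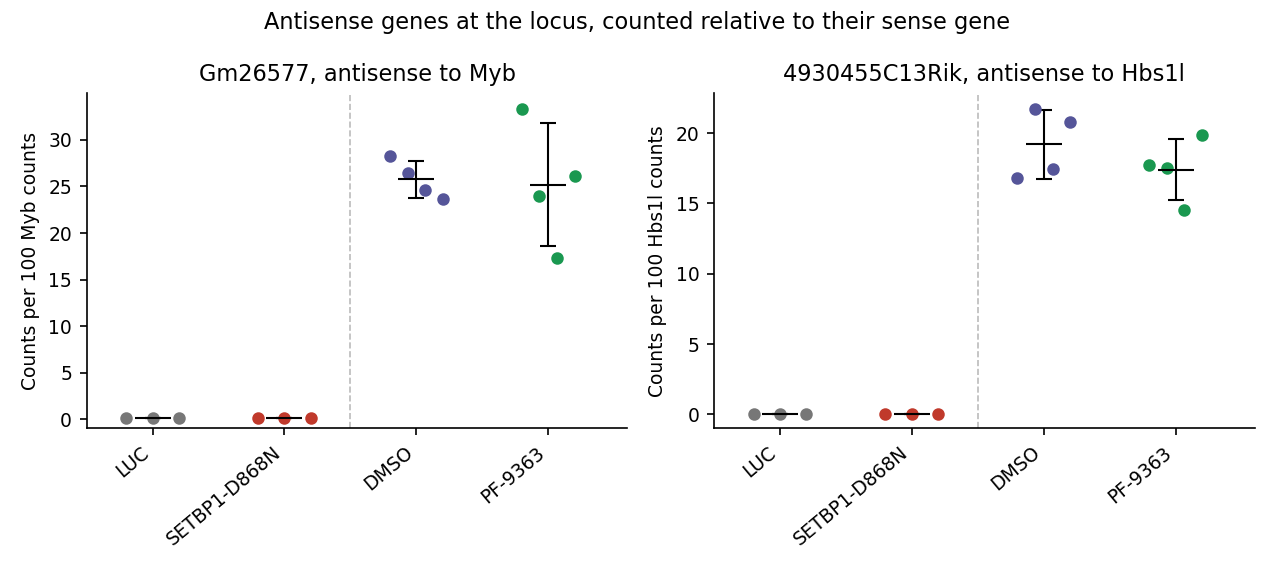
Counts of 2 antisense genes per 100 counts of the gene they overlap (vertical axes, linear), with 1 point per library by group (horizontal axes) and bars for the mean ± SD. Both lie near 0 in the 6 libraries of the first experiment, and in the second Gm26577 lies at 17.3 to 33.3 per 100 of Myb and 4930455C13Rik at 14.5 to 21.7 per 100 of Hbs1l.

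Beyond the 3 genes, the nearest 5 protein-coding genes on each side were followed, of which 7 of 10 passed the filter in both comparisons. With SETBP1-D868N, 3 of the 7 rose and 2 fell, and with PF-9363 4 rose and 2 fell. Over all tested genes, 24.5% were called higher and 22.7% lower with SETBP1-D868N, and 36.6% and 39.4% with PF-9363. Mtfr2, a regulator of mitochondrial fission 591 kb from Ahi1, rose with SETBP1-D868N from 30.7 ± 0.356 to 46.8 ± 0.315 CPM (log2 fold change 0.61, SE 0.034, adjusted p = 7.46e-08). It fell with PF-9363 from 41.3 ± 3.63 to 6.75 ± 2.26 CPM (log2 fold change −2.62, SE 0.15, adjusted p = 6.28e-14). Map7, a microtubule-binding protein gene, had the same pair of directions, at 0.42 (adjusted p = 1.00e-04) and −2.46 (adjusted p = 2.97e-08).

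Other neighbours moved differently from Myb. Map3k5, the stress kinase ASK1, fell with SETBP1-D868N (log2 fold change −0.27, adjusted p = 2.25e-04) and rose with PF-9363 (1.61, adjusted p = 4.04e-13). Pde7b, a cAMP phosphodiesterase between Mtfr2 and Ahi1, likewise went from −0.52 (adjusted p = 0.0227) to 0.98 (adjusted p = 1.47e-04). On the far side of Hbs1l, the kinase gene Sgk1 was not called with SETBP1-D868N (−0.045, adjusted p = 0.586) and rose with PF-9363 (2.73, adjusted p = 6.41e-16). Bclaf1, 608 kb from Ahi1, rose with SETBP1-D868N (0.21, adjusted p = 1.82e-05) and was not called with PF-9363 (−0.074, adjusted p = 0.292). The stretch around Myb thus held genes of either direction in both comparisons, as did the tested genes as a whole.

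**Figure D3:**
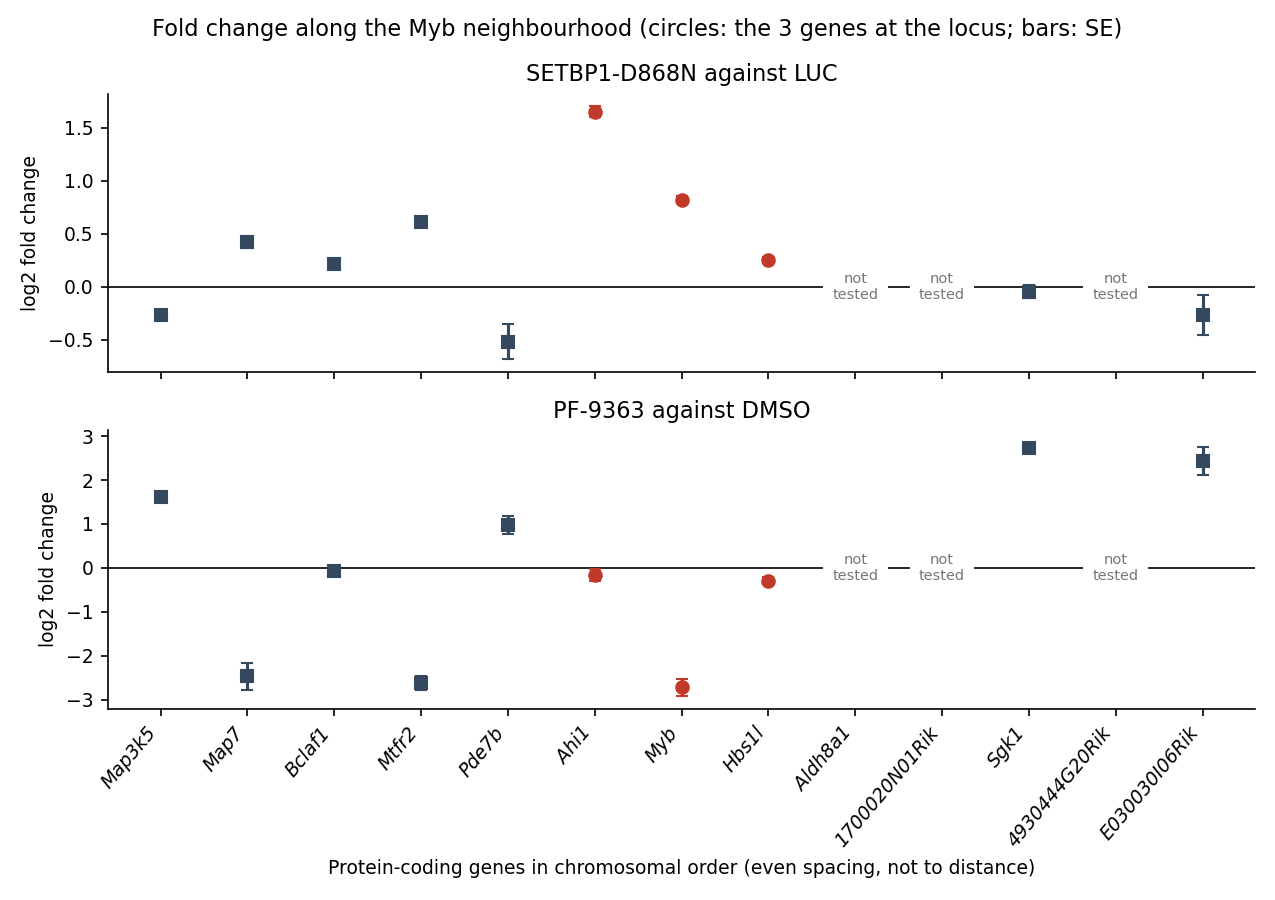
log2 fold change (vertical axes, bars are SE) of Ahi1, Myb and Hbs1l (circles) and the 5 nearest protein-coding genes on each side (squares), in chromosomal order with even spacing (horizontal axis), for SETBP1-D868N against LUC (top) and PF-9363 against DMSO (bottom). With PF-9363, Myb at −2.71 stands between Ahi1 at −0.16 and Hbs1l at −0.29, and Mtfr2 at −2.62 and Map7 at −2.46 are the other low genes.

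The genes whose pattern over all 14 libraries was most like that of Myb were sought among 9597 genes of sufficient level. Likeness was the root mean square difference of log2 CPM after each experiment was centred on its own mean. Mtfr2 came first of the 9597, with a difference of 0.15, and was thus named both by position and by pattern. It was followed by Tfdp2 (0.19), a dimer partner of E2F factors, Gria3 (0.21), a glutamate receptor subunit, Ung (0.21), the uracil-DNA glycosylase, and Hells (0.21), a chromatin remodeller. In Tfdp2, mean levels went from 24.7 to 30.9 CPM with SETBP1-D868N and from 37.5 to 6.08 CPM with PF-9363.

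The other members were less like Myb by this measure, which counts the size of a change as well as its direction. Mybl2 ranked 1330th (0.73), Hbs1l 3339th (0.97) and Ahi1 4103rd (1.04). For Mybl2, to which Myb ranked 142nd, the closest were Ms4a3, Klhl23 and Sapcd2. For Hbs1l they were Zfp706, Amd1 and Gspt1, the last a termination factor related to Hbs1l, and for Ahi1 Car2, Slc22a3 and Calcrl. Car2, carbonic anhydrase 2, had log2 fold changes of 1.93 and −0.18, beside 1.66 and −0.16 for Ahi1. Mybl1 was below the level required. The measure is a description, over libraries that hold 2 group differences, each with its own controls. When taken within each experiment alone it named 0 and 1 of the same 5 genes for Myb.

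**Figure D4:**
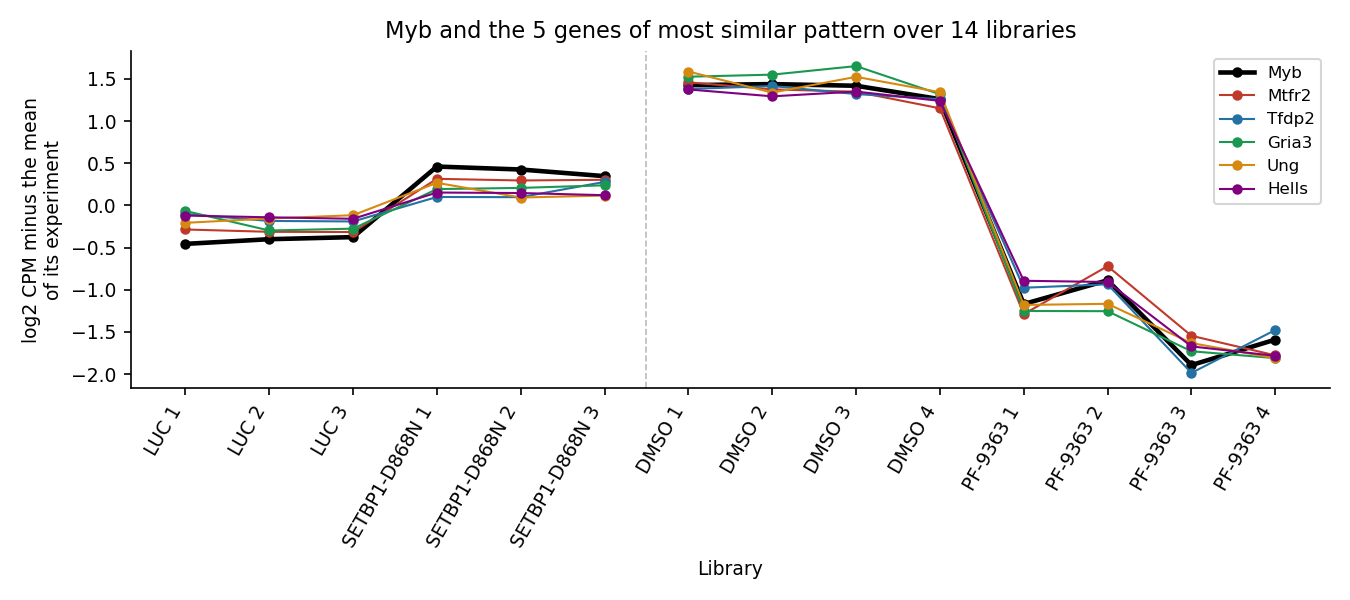
log2 CPM of Myb (thick line) and the 5 genes of most similar pattern in each library (horizontal axis), after the mean of each experiment was subtracted (vertical axis, log2 units). All 6 lines are higher in SETBP1-D868N than in LUC and drop from DMSO to PF-9363.

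Partners, targets and pathways of the members were examined in 7 lists of 92 genes in all. These lists were drawn up with earlier results of these data known. With SETBP1-D868N 43 of the 92 rose and 6 fell (46.7% and 6.52%), against 24.5% and 22.7% of all genes tested. With PF-9363 20 rose and 57 fell of the 92, of which 3 were not tested there. These are 21.7% and 62.0% of the 92, against 36.6% and 39.4% of all genes tested.

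The list of 13 reported MYB targets went in opposite directions. With SETBP1-D868N 9 of 13 rose and 1 fell, with a median log2 fold change of 0.29 beside 0.0043 for all genes. Lmo2, a haematopoietic transcription cofactor, rose from 92.3 ± 2.00 to 136 ± 6.96 CPM (log2 fold change 0.56, SE 0.037). Myc, the growth regulator, rose from 173 ± 3.85 to 241 ± 4.68 CPM (0.48, SE 0.028), and Mpo and Mat2a rose by 0.40 and 0.35. Kit, the receptor for stem cell factor, fell from 180 ± 2.81 to 115 ± 3.36 CPM (−0.66, SE 0.029).

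With PF-9363 9 of the 13 targets fell and 2 rose, with a median of −1.76 beside −0.038 for all genes. Elane, neutrophil elastase, fell from 1453 ± 70.5 to 1.75 ± 1.49 CPM, and Mpo, myeloperoxidase, from 2320 ± 304 to 6.35 ± 4.04 CPM. Myc fell from 178 ± 6.12 to 30.3 ± 2.91 CPM (−2.55, SE 0.075). Gfi1, a repressor needed for granulocytes, fell from 143 ± 6.45 to 29.7 ± 7.88 CPM (−2.26, SE 0.15). Kit rose here from 69.8 ± 5.89 to 191 ± 18.8 CPM (1.45, SE 0.075), and Bcl2, a survival gene, rose from 16.0 ± 3.14 to 69.2 ± 8.69 CPM (2.11, SE 0.12). Kit thus moved against Myb in both comparisons.

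Of these 13 targets, 4 (Kit, Cd34, Mpo and Elane) are also markers of progenitors or neutrophils, and marker lists of other cells moved with the groups. With PF-9363 the summed level of 8 mast cell and basophil markers went from 1125–1425 to 4276–5147 CPM (7 of 8 rose) and that of 8 monocyte and macrophage markers from 1615–1700 to 3397–3933 CPM (6 rose, 1 fell). The 9 neutrophil markers went from 16363–19121 to 13478–14996 CPM (2 rose, 5 fell), and the 7 stem and progenitor markers from 836–892 to 1576–1707 CPM (4 rose, 2 fell). These sums do not follow each of their members. Among the neutrophil markers, Mpo fell from 2320 to 6.35 CPM and Elane from 1453 to 1.75 CPM. Among the stem and progenitor markers, Spi1 rose from 228 to 362 CPM and Kit from 69.8 to 191 CPM. Cd34 was not called, at 24.0 and 26.9 CPM. The 8 erythroid and megakaryocyte markers went from 45.8–54.3 to 230–255 CPM, with 4 tested and 3 of them higher. The 6 B cell markers went from 11.3–15.7 to 1.71–3.61 CPM, with 2 tested and 2 lower. The 6 T and NK cell markers went from 0–0.299 to 0.868–1.44 CPM, with 0 tested. Within these lists, the B cell marker Ebf1 and the T cell markers Cd3e, Cd3g and Cd8a were at 0 in all libraries of that experiment.

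With SETBP1-D868N the neutrophil markers went from 19014–19733 to 13863–15667 CPM (4 rose, 5 fell). Mpo (2761 to 3643 CPM) and Elane (731 to 922 CPM) were among the 4 that rose, against the direction of the sum. The monocyte and macrophage markers went from 1236–1258 to 911–942 CPM (all 8 fell) and the mast cell and basophil markers from 5368–5548 to 6029–6125 CPM (5 rose, 3 fell). The stem and progenitor markers went from 1150–1167 to 960–964 CPM (3 rose, 4 fell). Cd34 was among those that rose, and Kit and Spi1 were among those that fell. The erythroid and megakaryocyte markers went from 312–328 to 333–358 CPM (3 rose, 1 fell), and the lists of B cell and of T and NK cell markers summed to at most 5.70 CPM each. The part of these shifts in the levels of Myb, the other members and the lists was not tested.

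Genes that B-MYB and MuvB switch on in G2 and mitosis were the most uniform list with PF-9363. All 18 fell, with a median of −2.43 and a range from −3.44 to −1.75. Aurkb, a kinase of chromosome segregation, fell from 86.4 ± 2.92 to 7.82 ± 2.59 CPM, and Bub1, a spindle checkpoint kinase, from 129 ± 2.61 to 13.8 ± 4.88 CPM. Ccnb2, a mitotic cyclin, fell from 108 ± 2.61 to 13.7 ± 5.81 CPM and Plk1, a mitotic kinase, from 91.6 ± 4.82 to 11.7 ± 5.96 CPM. Mybl2, at −4.36, lay below the lowest of the 18.

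Summed over the 18 genes, the DMSO libraries held 2632, 2629, 2678 and 2522 CPM and the PF-9363 libraries 591, 699, 309 and 303 CPM. PF-9363 libraries 1 and 2 were above libraries 3 and 4 and below every DMSO library, and they also had the higher Myb levels of the 4 (53.5 and 65.0 CPM, against 32.4 and 39.9). With SETBP1-D868N 7 of the 18 rose and 1 fell, with a median of 0.072. Without LUC library 3 the number that rose was 4, and with scaling by library size alone it was 11. Ect2, a cytokinesis regulator, rose by 0.19 (adjusted p = 2.43e-04) and Ccnb1, a mitotic cyclin, by 0.18 (adjusted p = 2.19e-04), while Kif23, a midzone kinesin, fell by 0.16 on the log2 scale (adjusted p = 0.00377). Aurkb and Cdc20 rose by 0.12 and 0.11.

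The same promoters are repressed in resting cells through the DREAM complex. The list of MuvB and DREAM genes, which adds Foxm1 and Dyrk1a to components of these complexes, gave 8 of 13 higher and 1 lower with SETBP1-D868N (median 0.17). E2f5 rose by 0.33, Tfdp2 by 0.32, Lin52 by 0.25 and E2f4 by 0.23 on the log2 scale, and Rbl2 fell by 0.088 (adjusted p = 0.0378), a call that was lost under most alternatives. The call of E2f5 was lost without LUC library 2, SETBP1-D868N library 2 or SETBP1-D868N library 3. With PF-9363 1 rose and 9 fell (median −0.55). Tfdp2 was at −2.60, Foxm1, a transcription factor of G2, at −2.16, Lin9, a MuvB subunit, at −1.75, and Rbl1, the pocket protein p107, at −1.15 on the log2 scale. Dyrk1a, a kinase that promotes assembly of DREAM, rose by 0.64 (adjusted p = 3.93e-09).

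The 14 partners and modifiers of MYB showed the opposite balance to the targets with PF-9363. Of these, 10 rose and 2 fell, with a median of 0.59. Crebbp, the gene of CBP, rose from 35.5 ± 6.05 to 139 ± 9.50 CPM (1.97, SE 0.093) and Ep300, the gene of p300, from 137 ± 14.5 to 281 ± 14.4 CPM (1.04, SE 0.069). Fbxw7, which marks MYB for degradation, rose by 1.28, and Kmt2a, the gene of MLL1, by 1.16. Men1, the gene of menin, fell from 66.8 ± 8.19 to 27.4 ± 4.04 CPM (−1.28, SE 0.11) and Cebpa, a granulocyte transcription factor, from 183 ± 9.71 to 128 ± 4.64 CPM (−0.52, SE 0.062). With scaling by library size alone, 8 rose and 4 fell.

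With SETBP1-D868N 3 of the 14 rose and 3 fell (median −0.078). Cebpa rose from 258 ± 1.42 to 369 ± 14.8 CPM (0.52, SE 0.030), Men1 by 0.13 and Cbfb by 0.093, whereas Spi1, the gene of PU.1, fell from 353 ± 1.75 to 293 ± 4.35 CPM (−0.27, SE 0.024). Cebpb and Fbxw7 fell too, with log2 fold changes of −0.16 and −0.14, of which the call of Fbxw7 was lost with scaling by library size alone. Crebbp and Ep300 were not called in that comparison.

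Of 8 other genes with Myb-type repeats, 3 rose with SETBP1-D868N and 5 were not called (median 0.0045). These were Snapc4, a subunit of the snRNA promoter complex (0.42, SE 0.036), and the telomere proteins Terf2 (0.18) and Terf1 (0.17). With PF-9363 2 rose and 4 fell (median −0.23). The log2 fold changes were −1.09 for Terf1, −0.82 for Terf2, −0.34 for Snapc4, whose groups overlapped, and −0.27 for Ttf1. The call of Snapc4 was lost with DESeq2 and without DMSO library 1, DMSO library 2 or PF-9363 library 4. Mysm1 rose by 0.30 and Dmtf1 by 0.28, calls that were lost with scaling by library size alone.

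Partners of Hbs1l in ribosome rescue and RNA decay gave 8 of 12 higher and 4 not called with SETBP1-D868N (median 0.17), beside 0.25 for Hbs1l. Abce1, which splits ribosomes, rose from 221 ± 6.84 to 291 ± 3.02 CPM (0.40, SE 0.028), the termination factor Etf1 by 0.30, Zfp598, a sensor of collided ribosomes, by 0.26, and Gspt1 by 0.24. Pelo, the direct partner of Hbs1l, was not called there. With PF-9363 3 rose and 7 fell (median −0.28, beside −0.29 for Hbs1l). Pelo fell from 5.17 ± 0.918 to 2.97 ± 0.453 CPM (−0.81, SE 0.23). Ttc37 and Wdr61, subunits of the Ski complex, fell with log2 fold changes of −0.62 and −0.54, and Ltn1, a ligase for stalled chains, with −0.56. Etf1 rose by 0.40, Vcp by 0.28 and Tcf25 by 0.21, and of these Vcp and Tcf25 were not called higher with scaling by library size alone.

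Partners of Ahi1 in the ciliary transition zone gave 5 of 14 higher and 9 not called with SETBP1-D868N (median 0.19). The number that rose was 3 without LUC library 2, LUC library 3, SETBP1-D868N library 2 or SETBP1-D868N library 3. Cc2d2a rose by 0.55, Mks1 by 0.25 and Rpgrip1l by 0.20, and Tctn2, at 0.252 to 0.431 CPM, by 0.77. Of these calls, that of Tctn2 was lost with DESeq2, with no filter and without LUC library 1 or 2 or SETBP1-D868N library 2 or 3. That of Mks1 was lost without LUC library 1 or 3 or SETBP1-D868N library 1, and that of Rpgrip1l without LUC library 2 or 3 or SETBP1-D868N library 2 or 3. All were below the 1.66 of Ahi1. With PF-9363 2 rose and 8 fell of 11 tested (median −1.71), where Ahi1 was at −0.16. Rpgrip1l fell from 15.7 ± 1.45 to 3.15 ± 0.796 CPM. Mks1 and Cep290 fell as well, at −2.26 and −2.25 on the log2 scale, and all of these belong to the gate at the ciliary base. Tctn1 rose from 110 ± 3.26 to 242 ± 17.4 CPM (1.14, SE 0.064) and Tmem216 by 0.49. In the first experiment Tctn1 stood at 10.5 ± 0.530 CPM with LUC and 11.2 ± 0.384 CPM with SETBP1-D868N. Whether strand handling bears on its higher level in the second experiment was not tested.

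**Figure D5:**
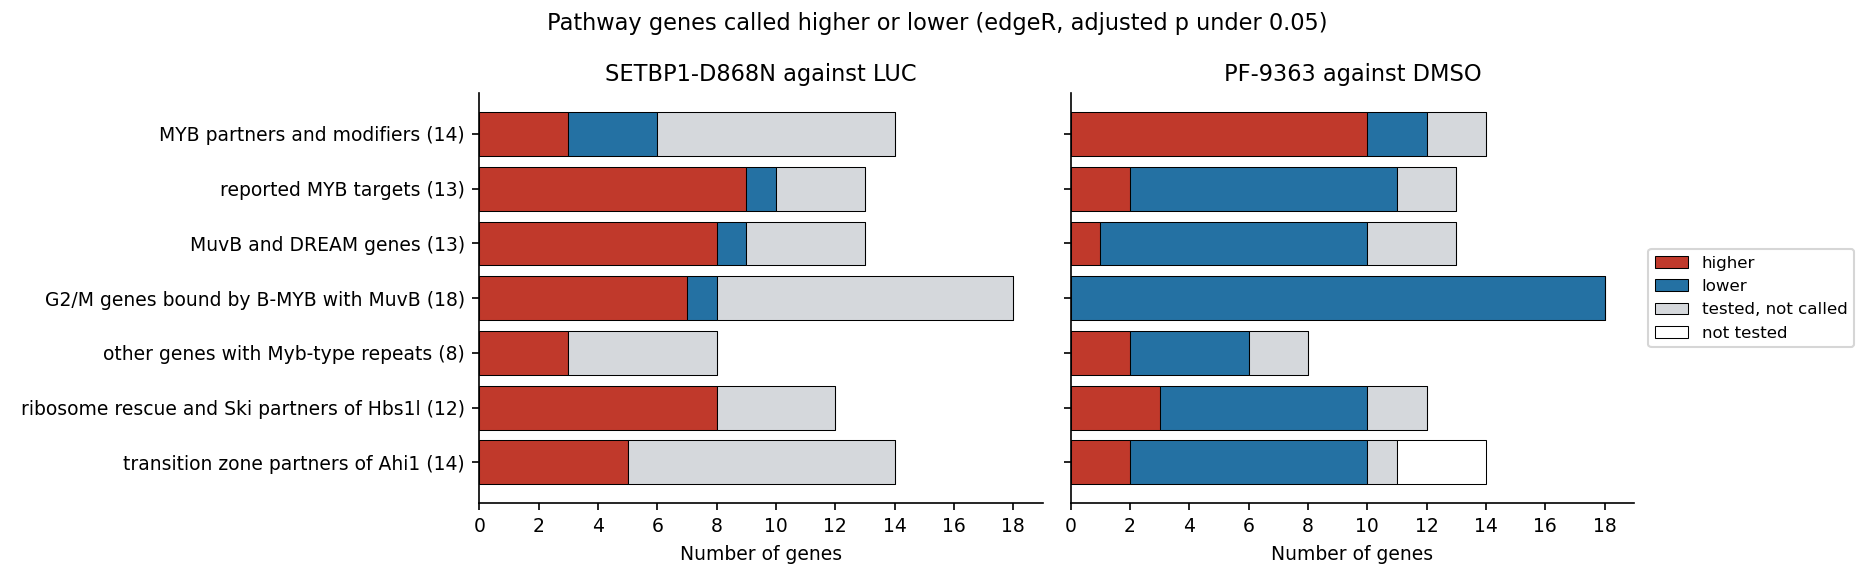
Number of genes of each pathway list (horizontal axes) called higher, called lower, tested and not called, or not tested, for SETBP1-D868N against LUC (left) and PF-9363 against DMSO (right), with the list size in brackets. The G2/M list is wholly lower with PF-9363 (18 of 18), and the list of MYB partners has 10 of 14 higher there.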

How the data were processed

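The members and gene lists were chosen with earlier results of these data known. The authors deposited 1 table of raw counts per gene symbol for each experiment (55367 symbols, 1 column per library, 0 columns left unmapped), per the labels. The submitters' processing notes name STAR, DESeq2 and the builds GRCm38 and mm10, with no versions or roles. The counting program, annotation, strand handling and removal of duplicates are not given in the sources used here.

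Each experiment's counts were filtered with edgeR 4.0.16 in R 4.3.3 (filterByExpr, minimum count 10, minimum total 15), scaled by TMM and printed as CPM. Groups were compared with edgeR's robust quasi-likelihood test with the group as the only factor, adjusted by Benjamini-Hochberg over all 15794 or 13456 genes, and called at an adjusted p under 0.05. SE is the absolute log2 fold change over the square root of F. Tested on simulated counts, the share of false calls was above the nominal rate in the first comparison and near it in the second. Groups came from the sample titles. No 2 libraries of a group agreed within sampling noise (chi-square per degree of freedom of 2.21 to 25.2), and same-numbered libraries did not deviate together.

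Beside the members, the named genes are up to 4 per list, comparison and direction with the largest change among those called, the 5 protein-coding neighbours on each side in GENCODE M21, and the 5 (Myb) or 3 (other members) most similar genes, among those with a mean of at least 5 CPM in each experiment (CPM under 0.01 set to 0.01 before log2). Antisense genes were added after their values were seen. Alternatives were RLE or library-size scaling, no filter beyond 1 count, DESeq2 1.42.0, limma-voom (limma 3.58.1), a replicate block, and leaving out each library. Some genes that these rules name are not reported here.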

Additional observations from a re-analysis of the deposited data

Results flagged for a closer look

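Among 24 sets of 4 libraries checked (levels and ratios of the 5 members and the summed level of the G2/M genes, in the DMSO and PF-9363 groups), 6 had a highest or lowest library set apart from the others by a gap that is large for the range, where chance gives about 1 in 20. DMSO library 4 was one source of these. Its Myb level of 287.6 CPM was below the 321 to 325 CPM of the other DMSO libraries, and its Ahi1 level of 19.4 CPM was above their 15.9 to 16.5 CPM. Its counts per 100 of Myb were accordingly high, at 6.75 for Ahi1 (others 4.87 to 5.11) and 19.8 for Hbs1l (others 18.0 to 18.3). Its Mybl1 level of 1.72 CPM was the lowest of that group too, in a wider spread. PF-9363 library 2 was the other. Its Mybl2 level of 10.6 CPM was above the 2.96 to 3.81 CPM of the other PF-9363 libraries, and its 357 Mybl2 counts per 100 of Mybl1 were above their 161 to 194. These flags share libraries and counts and are not independent of each other.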

How the results depend on the processing

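Of 1512 values recomputed under an alternative, 1427 kept their direction and side of the threshold or stayed close. All 70 fold changes of members with 1 library left out moved by less than the SD of that member's log2 CPM within groups. That bound is wide where replicates differ, as for Mybl1, whose log2 fold change with PF-9363 ranged from −1.19 to −0.72. Whether the calls of members held was not part of this check.

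Scaling by library size alone moved the most. With SETBP1-D868N it gave log2 fold changes of 1.70 (Ahi1), 0.30 (Hbs1l), 0.080 (Mybl1) and 0.41 (Mybl2), 11 G2/M genes higher and 0 MuvB and DREAM genes lower. With PF-9363 it gave −0.38 (Ahi1) and −0.52 (Hbs1l), 4 MYB partners lower, and 0 genes with Myb-type repeats, 1 partner of Hbs1l and 1 of Ahi1 higher. Tcf25 turned from 0.21 to −0.024 on the log2 scale.

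With SETBP1-D868N, limma-voom called 5 MYB partners lower, DESeq2 called 0 MuvB and DREAM genes lower, and without the filter 1 partner of Ahi1 was lower. Same-numbered libraries did not deviate together (correlations of −0.097 to 0.0075). With the replicate block, 2 partners of Ahi1 were higher (the calls of Rpgrip1l, Tctn2 and Mks1 were lost) and 0 MuvB and DREAM genes lower, and the genes called higher and lower were 3416 and 3224 with SETBP1-D868N and 4885 and 5239 with PF-9363.

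With 1 library left out, SETBP1-D868N gave 0 to 1 MuvB and DREAM genes lower, 4 to 8 G2/M genes higher (4 without LUC library 3), 0 to 1 partners of Hbs1l lower (1 without LUC library 1), and 3 to 4 partners of Ahi1 higher and 0 to 1 lower (1 without SETBP1-D868N library 1). The cause of these changes was not tested. Mybl1, at 11 to 60 reads per library in the second experiment, is limited by depth there.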
